A study of Mus musculus with 54 samples.

Results

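The genes described here are 48 DNA replication and S phase genes, listed by name for what their proteins are known to do. All 48 were found by symbol among the 10799 genes of one deposited expression table and the 10176 genes of the other, and all 48 passed the filter on low values in both (at least 1 TPM in at least 4 libraries). TPM is a transcript level corrected for gene length and for the size of the library. The cells were group 2 innate lymphoid cells (ILC2s), tissue-resident lymphocytes that respond to the epithelial cytokine IL-25, sorted from the small intestine of C57BL/6 mice aged 8 to 12 weeks, with sexes pooled per the labels.

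RNA had been measured with Smart-seq2, a full-length cDNA method, in 40 of the series' 54 samples; the other 14 were DNA libraries (ATAC and CUT&Tag) and were not analysed here. In the first table, ILC2s of wild-type (WT) mice had been cultured with IL-2 and IL-7, alone or with IL-25 added, for 4, 48 or 72 h, which gave 6 groups of 4 libraries. The second table held 4 groups of 4 libraries from cells labelled nILC2 or iILC2 (the labels do not spell out either prefix), each from control mice (CTRL, Rxrg+/+) or knockout mice (KO, Rxrg-/-). All 16 of these libraries carry the labels IL-25 and 48 h, so that table has no group without IL-25. Rxrg encodes retinoid X receptor gamma, a nuclear receptor. Nothing in the labels states whether the 4 libraries of a group came from separate mice or cultures, so p-values measure the spread between these libraries, which may be technical.

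A cell copies its genome once per cycle in an ordered series of steps. In G1, the origin recognition complex with CDC6 and CDT1 loads the MCM2-7 ring, the core of the replicative helicase, onto DNA. Cyclin E and the E2F transcription factors drive entry into S phase, when CDC45 and GINS join MCM2-7 into the active helicase, primase and the polymerases copy both strands, PCNA clamps the polymerases to DNA, and RPA coats the single strands. Deoxynucleotides and new histones are made in the same phase. Mature ILC2s divide little at rest and proliferate when stimulated with cytokines.

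The targeted gene was checked first. Rxrg stood at 12.3, 17.4, 12.2 and 18.4 TPM in the nILC2 CTRL libraries (replicates 1 to 4 here and below) and at 2.58, 1.76, 1.27 and 3.12 TPM in the nILC2 KO libraries, with no overlap. In iILC2 it stood at 1.72, 1.83, 1.26 and 1.68 TPM in CTRL against 0.26, 0.48, 0 and 0.38 TPM in KO, so its level was already low in the iILC2 controls. All 14 ILC2 markers looked up were listed in both tables, and summed to between 3113 and 7448 TPM over the cultured libraries. They summed to 2859 to 3188 TPM in nILC2 CTRL, 2141 to 2890 TPM in nILC2 KO and 1395 to 1591 TPM over the iILC2 libraries. The sums hide opposite moves. At 48 h in culture, mean Il5 was 187 TPM without and 2101 TPM with IL-25. Il13, Il2ra, Klrg1, Icos and Il1rl1 also had higher means with it. Means were lower with IL-25 for Gata3 (295 against 723 TPM), Rora (36.5 against 179), Il17rb (18.0 against 124) and Il7r (17.9 against 49.3). Id2, Thy1, Kit and Ptprc also had lower means with it. Markers of other cells were mostly not listed: 2 of 10 T cell markers in the culture table (Cd3e and Cd3g) and 1 in the other, 1 of 8 B cell markers (Cd79b), 2 of 10 epithelial markers, 4 or 5 of 10 myeloid markers, 2 or 1 of 6 erythroid markers and 0 of 6 mast cell markers. Summed TPM of Y-linked genes was under 1 in replicate 2 of CTRL and replicates 1 and 2 of KO, in nILC2 and iILC2 alike, and between 93.4 and 168 in the other 34 libraries; the labels give pooled sexes throughout. Its part in the results was not tested beyond a fit with a term for it, given below.

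**Figure D1:**
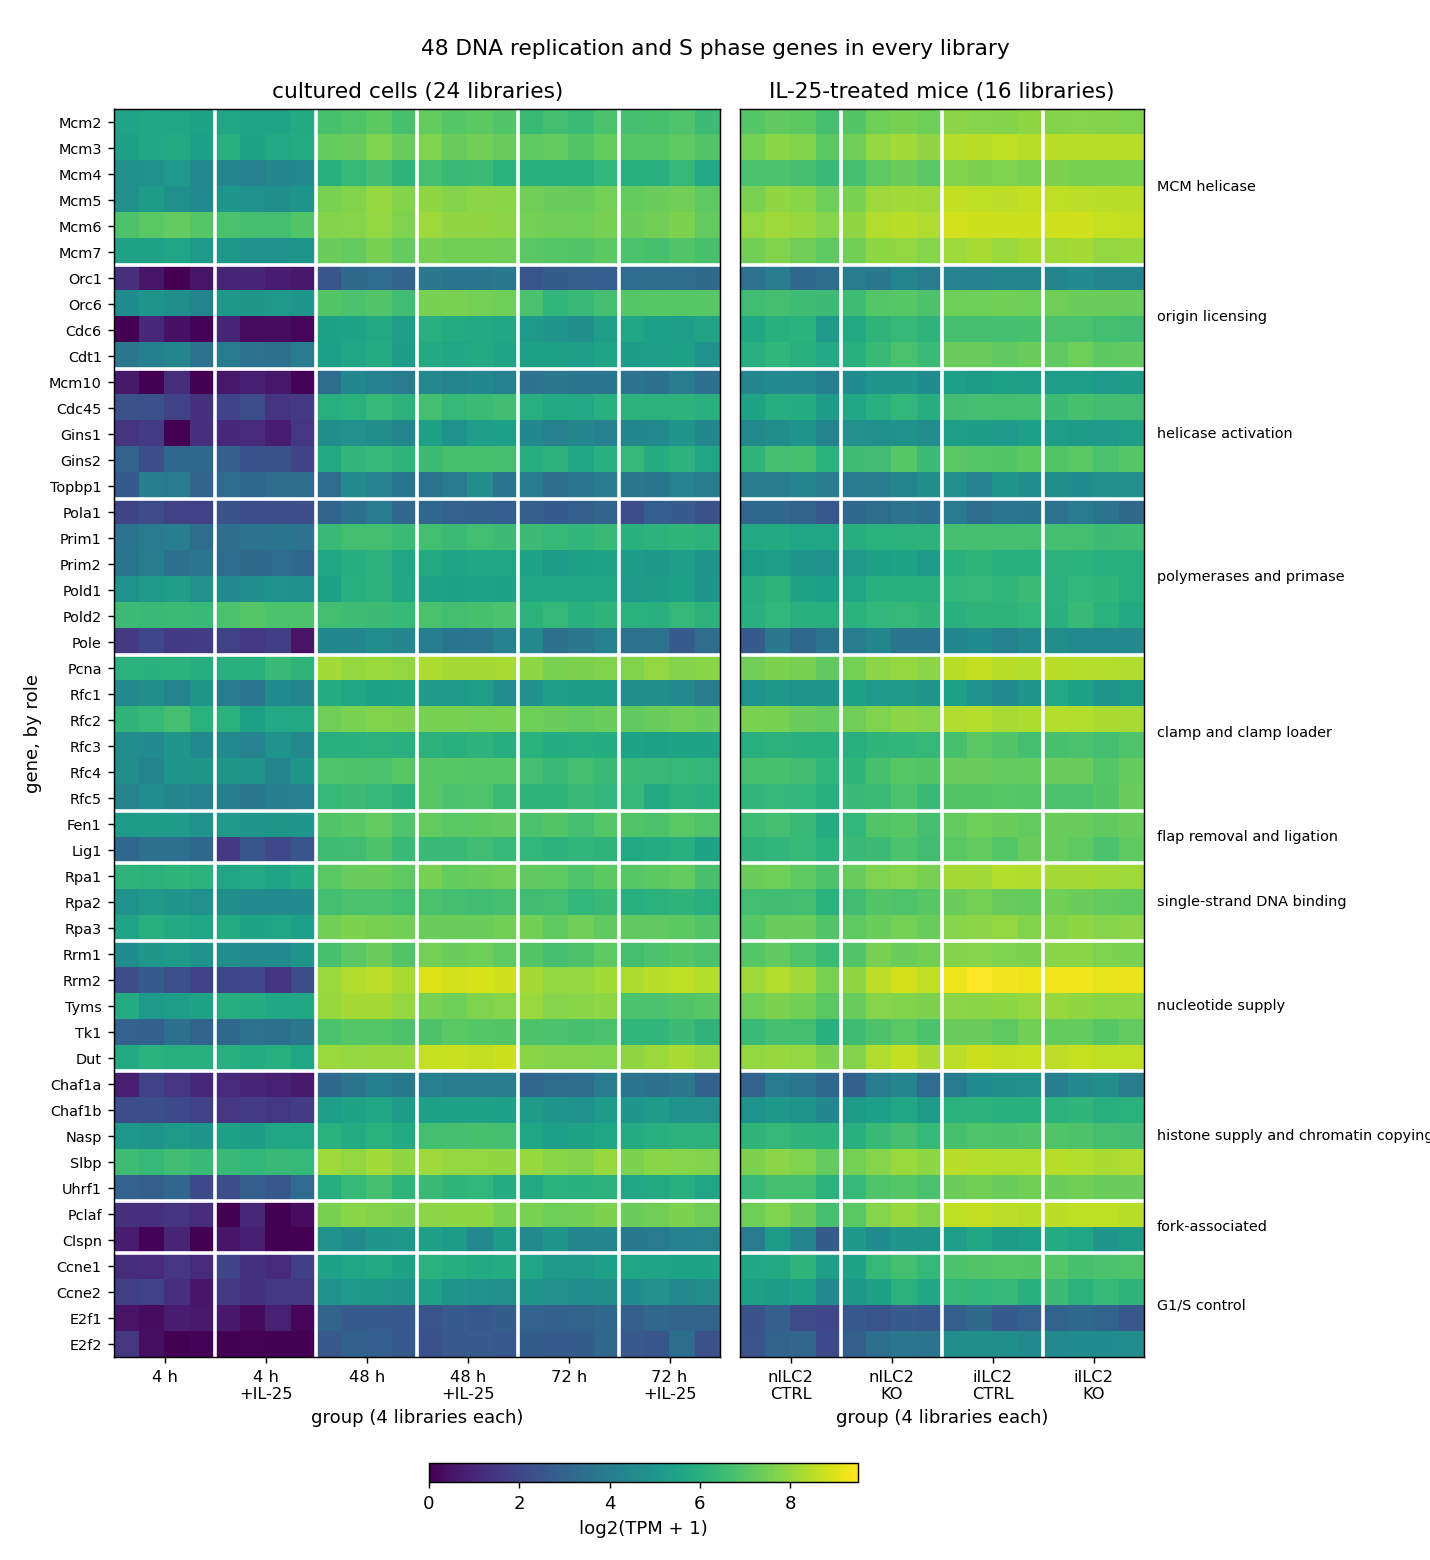
Level of each of the 48 genes (rows, ordered by role) in each of the 40 libraries (columns, 4 per group, replicates 1 to 4 from left to right) as log2(TPM + 1), from dark (low) to yellow (high). The 8 columns of 4 h culture are the darkest, and the iILC2 columns are the brightest, with Rrm2 the brightest row at 613 to 711 TPM in iILC2 CTRL.

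Time in culture moved nearly the whole set. At 48 h without IL-25, 46 of the 48 genes were higher than at 4 h and none was lower at adjusted p under 0.05 (limma on log2(TPM + 1), Benjamini-Hochberg over all 10548 genes tested; used for every call below). Of all genes tested, 64.4% were called in that comparison and 19.9% were called higher. With IL-25 the count was 47 higher and 0 lower, against 72.2% called and 27.6% called higher among all genes. The median log2 fold change of the 48 genes was 2.11 without IL-25 and 2.48 with it, where the median over all genes tested was -0.28 and -0.24. Their summed level rose from between 1156 and 1363 TPM at 4 h to between 4707 and 5531 TPM at 48 h without IL-25, and from 1110 to 1196 TPM up to 5449 to 5922 TPM with it. Between 39 and 43 of the 48 genes reached 1 TPM in the single 4 h libraries, and all 48 did so in every library at 48 h and 72 h. The libraries are bulk, so more cells in S phase and more of these RNAs per cell cannot be told apart.

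The largest rises were in genes close to 0 TPM at 4 h. Pclaf, which encodes a PCNA-binding protein, stood at 1.54, 1.46, 1.68 and 1.32 TPM at 4 h without IL-25 and at 187, 222, 213 and 196 TPM at 48 h. Rrm2, the regulated small subunit of ribonucleotide reductase, which makes deoxynucleotides, went from 3.70, 5.79, 3.97 and 2.69 TPM to 269, 329, 370.5 and 304 TPM. No library of one time overlapped the other for either gene, and the changes were large on the log scale (Pclaf log2 fold change 6.36, SE 0.15, adjusted p = 1.12e-20; Rrm2 log2 fold change 6.01, SE 0.15, adjusted p = 2.85e-20). The pseudocount of 1 TPM holds the fold change of such low genes down.

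Origin licensing genes rose from unequal levels. Cdc6, the loader of MCM2-7, was listed at 0, 1.08, 0.39 and 0.06 TPM at 4 h and stood at 42.4, 44.1, 53.8 and 39.3 TPM at 48 h without IL-25 (log2 fold change 5.11, SE 0.20, adjusted p = 5.42e-17). Cdt1, its partner in loading, was already at 12.5, 16.2, 19.1 and 10.7 TPM at 4 h and reached 39.6, 47.2, 55.9 and 36.4 TPM (log2 fold change 1.56, SE 0.16, adjusted p = 4.89e-09). Orc1 and Orc6, subunits of the origin recognition complex, were 2.44 and 2.19 higher on the log2 scale, from under 1.5 TPM in each 4 h library for Orc1 and from 18.4 to 29.5 TPM for Orc6.

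All 6 MCM2-7 genes rose, by 0.74 (Mcm6) to 2.93 (Mcm5) on the log2 scale. Mcm6 was the most abundant of them at 4 h, at 115, 134, 149.6 and 126 TPM. Mcm5 went from 26.5, 36.8, 26.0 and 22.5 TPM to 193, 209, 256 and 214 TPM (log2 fold change 2.93, SE 0.11, adjusted p = 2.78e-17), and at 48 h the means of these 6 genes without IL-25 ran from 76.4 TPM (Mcm4) to 219 TPM (Mcm6). Mcm2 rose from 45.3, 50.1, 48.1 and 44.6 TPM to 106, 118, 136 and 105 TPM (log2 fold change 1.28, SE 0.10, adjusted p = 2.50e-11). At 4 h their means had run from 27.2 TPM (Mcm4) to 131 TPM (Mcm6).

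Of the genes that turn the loaded ring into a moving helicase, Cdc45 and Gins1 rose by 4.17 and 3.53, Mcm10 by 3.49 and Gins2 by 3.21 on the log2 scale. Topbp1, a scaffold for helicase activation and for checkpoint signalling, was the exception without IL-25, at 5.81, 15.7, 13.9 and 7.39 TPM at 4 h and 9.09, 22.7, 17.5 and 11.8 TPM at 48 h (log2 fold change 0.50, SE 0.27, adjusted p = 0.11). Its libraries overlapped between the times. With IL-25 it was called higher (log2 fold change 0.65, SE 0.27, adjusted p = 0.0343).

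Among the polymerase genes, 5 of 6 rose and 1 was not called. Pold2, an accessory subunit of DNA polymerase delta, stood at 89.3, 85.2, 87.2 and 86.6 TPM at 4 h and at 96.7, 92.0, 90.3 and 82.4 TPM at 48 h (log2 fold change 0.05, SE 0.08, adjusted p = 0.592, 95% interval -0.11 to 0.21). With IL-25 it was at 109, 125, 112 and 110.3 TPM and then 108, 97.4, 106 and 111 TPM (log2 fold change -0.11, SE 0.08, adjusted p = 0.205), the only one of the 48 genes not called over time in either medium. Pold1, the catalytic subunit of the same enzyme, rose by 0.75, and Prim1 and Prim2, the subunits of primase, rose by 2.79 and 2.09. Pole, the catalytic subunit of the leading-strand polymerase, rose by 2.75, its 4 h libraries lying between 2.02 and 3.05 TPM.

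The clamp Pcna was abundant at both times, at 65.9, 63.6, 66.7 and 59.7 TPM at 4 h and 286, 252, 267 and 247 TPM at 48 h (log2 fold change 2.02, SE 0.08, adjusted p = 1.85e-16). All 5 clamp loader genes rose, by 0.98 (Rfc1) to 2.13 (Rfc4). Fen1, the flap nuclease of Okazaki fragments, rose by 1.86 and the ligase Lig1 by 3.27. The RPA subunits Rpa1, Rpa2 and Rpa3 rose by 1.07, 1.78 and 1.80, with Rpa3 at 46.3, 61.1, 55.4 and 47.5 TPM before and 178, 196, 189 and 176 TPM after.

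Nucleotide supply genes all rose. Tyms (thymidylate synthase) was at 56.8, 33.9, 38.6 and 43.1 TPM at 4 h and 264, 300.2, 297 and 252 TPM at 48 h, and Tk1 (thymidine kinase) at 6.84, 6.82, 10.2 and 7.34 TPM and 111, 126, 127 and 114 TPM, without overlap (log2 fold change 3.79, SE 0.12, adjusted p = 8.86e-19). Rrm1 and Dut (dUTPase, which keeps uracil out of DNA) rose by 2.09 and 2.06. In the histone and chromatin group, the rises went from 0.93 for Nasp, a histone chaperone, to 3.50 for Uhrf1, which carries DNA methylation across replication, with Chaf1b, a subunit of the chromatin assembly factor, at 3.31 and Slbp, which binds replication-dependent histone mRNAs, at 1.57 (from 93.4, 81.7, 94.5 and 85.3 TPM to 279.6, 249, 289.5 and 242 TPM).

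The 4 regulators of S phase entry rose from near 0. Ccne1 (cyclin E1) went from 1.37, 1.25, 1.87 and 1.24 TPM to 42.8, 48.6, 53.2 and 42.5 TPM (log2 fold change 4.30, SE 0.15, adjusted p = 7.83e-18), and Ccne2 from 2.40, 2.55, 1.50 and 0.49 TPM to 28.2, 33.3, 32.2 and 29.0 TPM (log2 fold change 3.61, SE 0.19, adjusted p = 3.88e-14). E2f1 and E2f2 stayed low in absolute terms. E2f1 was at 0.41, 0.25, 0.71 and 0.63 TPM and then 7.19, 5.64, 5.56 and 5.33 TPM (log2 fold change 2.21, SE 0.16, adjusted p = 1.19e-11), and E2f2 was listed at 1.82, 0.28, 0 and 0.06 TPM and then 5.26, 6.64, 6.11 and 5.44 TPM (log2 fold change 2.29, SE 0.25, adjusted p = 1.35e-08), with no overlap in either. Claspin, encoded by Clspn and needed for the replication checkpoint, rose by 4.43.

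**Figure D2:**
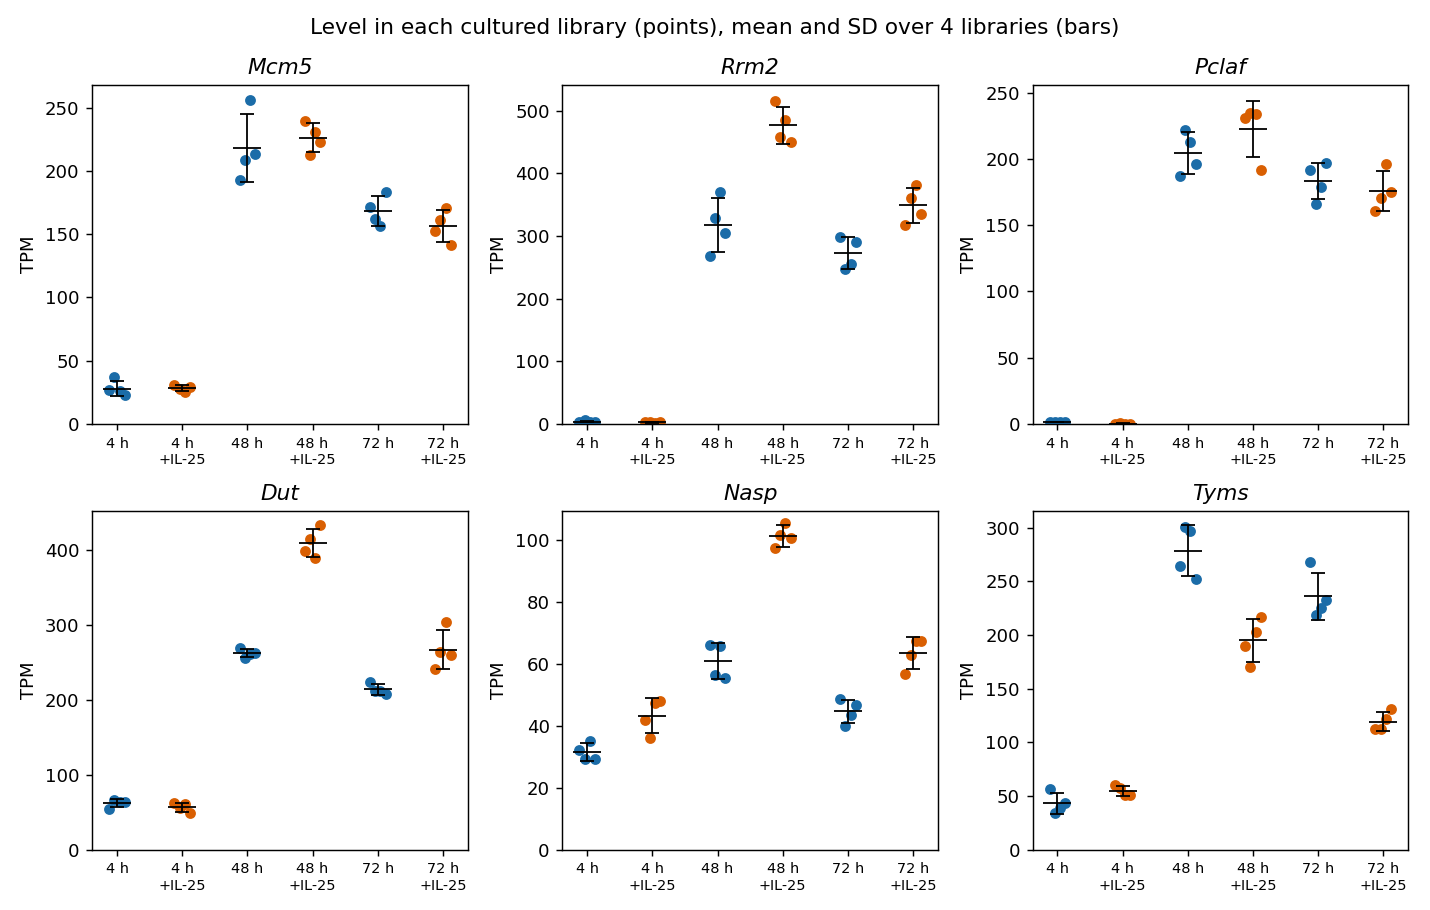
TPM of 6 genes (panels, linear axis from 0) in each cultured library (points, blue without and orange with IL-25), with the mean and SD over 4 libraries as bars. Mcm5, Rrm2 and Pclaf are low in all 8 libraries of 4 h, Dut and Nasp are higher with than without IL-25 at 48 h, and Tyms is lower with it at 48 h and 72 h.

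Since these genes moved together in culture, their promoters were read. RefSeq windows of 300 bases (250 before to 50 after the gene start, GRCm38.p6) were matched by symbol for 41 of the 48 genes; Mcm4, Gins1, Gins2, Prim2, Pole, Rfc2 and Ccne2 had none in the table. The core words of the E2F site, TTCCCGC or TTGGCGC or TTGCCGC or TTCGCGC on either strand, were scored as present or absent per gene. At least 1 was in the windows of 26 of the 41 genes (63.4%), of 20.3% of the 8506 genes with a window among those tested in culture, and of 10.9% of all 27025 genes with a window. A CCAAT word was in 65.9%, 43.7% and 41.1% of them, and the TTTGAA word of the cell cycle homology region was in 14.6%, 14.5% and 20.2%. No test was made of these shares. A match describes letters only, and genes with large rises lacked the E2F words, among them Ccne1, Cdc45, Tk1 and Mcm10. The 250 bases before the start follow for the 5 genes with the largest rise from 4 h to 48 h that have a single window, an E2F word in these bases and no overlap with the annotated gene. They were picked to hold the word, which is in capitals, and are printed 5′ to 3′ on the strand of the gene.
Rrm2 (chr12:24708004-24708253, plus strand): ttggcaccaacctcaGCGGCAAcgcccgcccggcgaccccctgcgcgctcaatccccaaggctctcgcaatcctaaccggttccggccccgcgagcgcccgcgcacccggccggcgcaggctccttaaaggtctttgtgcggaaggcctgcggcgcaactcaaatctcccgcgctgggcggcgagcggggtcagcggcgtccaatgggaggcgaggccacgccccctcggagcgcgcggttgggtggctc
Prim1 (chr10:128014965-128015214, plus strand): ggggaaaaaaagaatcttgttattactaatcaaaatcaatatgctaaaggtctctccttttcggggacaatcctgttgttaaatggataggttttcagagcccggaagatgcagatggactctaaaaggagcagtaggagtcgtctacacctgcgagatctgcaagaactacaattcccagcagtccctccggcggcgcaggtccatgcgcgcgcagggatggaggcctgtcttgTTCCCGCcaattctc
Chaf1a (chr17:56040166-56040415, plus strand): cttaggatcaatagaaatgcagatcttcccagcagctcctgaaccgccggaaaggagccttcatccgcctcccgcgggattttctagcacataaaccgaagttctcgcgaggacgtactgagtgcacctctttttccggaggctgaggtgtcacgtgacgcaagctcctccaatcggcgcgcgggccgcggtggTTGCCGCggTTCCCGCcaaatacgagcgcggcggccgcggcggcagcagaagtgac
Rrm1 (chr7:102441445-102441694, plus strand): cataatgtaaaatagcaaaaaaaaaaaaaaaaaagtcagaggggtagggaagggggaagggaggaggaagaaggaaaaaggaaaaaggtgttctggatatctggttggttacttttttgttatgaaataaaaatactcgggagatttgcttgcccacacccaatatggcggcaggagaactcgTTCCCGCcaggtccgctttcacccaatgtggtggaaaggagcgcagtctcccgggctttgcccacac
Rpa3 (chr6:8259142-8259391, minus strand): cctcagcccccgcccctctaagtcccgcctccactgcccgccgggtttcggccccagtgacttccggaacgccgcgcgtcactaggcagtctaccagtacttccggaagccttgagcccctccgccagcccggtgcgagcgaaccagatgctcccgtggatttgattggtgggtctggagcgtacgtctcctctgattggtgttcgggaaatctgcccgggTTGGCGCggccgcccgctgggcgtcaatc
The word nearest to the start began 235 bases before it in Rrm2, 67 in Rrm1, 47 in Chaf1a, 29 in Rpa3 and 15 in Prim1. Chaf1a has 2 words in these bases and the others have 1. The 5 stretches belong to a reductase pair (Rrm1 and Rrm2), a primase subunit, a chromatin assembly subunit and an RPA subunit, which spans 4 of the role groups above.

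From 48 h to 72 h every change called with the TPM values scaled as deposited was a fall. After rescaling by the median of ratios, 1 member was called higher and 32 lower with IL-25, against 1876 and 1652 of all genes. With IL-25, 34 of 48 genes were lower at 72 h and none was higher, where 31.2% of all genes were called and 17.9% were called lower. The median log2 fold change of the set was -0.47, against -0.04 for all genes. Without IL-25, 2 of 48 were lower (Nasp and Pold2) and none higher, where 0.379% of all genes were called and 0.0948% were called lower, and the median was -0.25 with 46 of the 48 estimates below 0. At an unadjusted p under 0.05, 21 of the 48 genes passed there, and 11.6% of all genes. The number called without IL-25 was 8 under either rescaling of the libraries and 0 when only the 2 groups compared were fitted. Over all genes, 47 were called by the median of ratios, 86 under quantile normalization and 3 in the fit of the 2 groups. The member count was also 0 without replicate 1, 2 or 3 of the 48 h group or replicate 3 or 4 of the 72 h group. It was 1 without replicate 2 of the 72 h group. Of all genes, 21, 12, 49, 11, 17 and 26 were called in those fits, in that order.

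Clspn fell most with IL-25, from 42.4, 34.8, 21.5 and 35.3 TPM at 48 h to 13.2, 14.4, 17.2 and 18.0 TPM at 72 h (log2 fold change -1.02, SE 0.23, adjusted p = 0.00134), a call lost with a pseudocount of 0.1 TPM (adjusted p = 0.212). Rfc5, a clamp loader subunit, fell from 131, 110.0, 117 and 88.1 TPM to 79.1, 53.3, 68.5 and 63.7 TPM (log2 fold change -0.75, SE 0.13, adjusted p = 7.43e-05). Tyms fell from 190.0, 170.3, 203 and 216 TPM to 112, 112, 122 and 131 TPM (log2 fold change -0.70, SE 0.11, adjusted p = 2.85e-05). In all 3 genes every 72 h library lay below every 48 h library. All 6 MCM2-7 genes, all 3 RPA genes and all 5 nucleotide supply genes were called lower, Mcm7, Mcm10, Lig1, Gins2 and Nasp among them at -0.68, -0.68, -0.68, -0.68 and -0.67; Mcm10 lost its call with that pseudocount (adjusted p = 0.4) and without any of 5 of the 8 libraries (replicate 1 or 3 at 48 h, or 1, 2 or 4 at 72 h). The 14 genes not called included E2f1 and E2f2, whose estimates were 0.36 and 0.15, and Cdc6, Cdc45, Pclaf and Ccne2. Without IL-25, Nasp was at 66.2, 56.5, 65.9 and 55.4 TPM at 48 h and 48.6, 40.0, 43.6 and 46.8 TPM at 72 h (log2 fold change -0.44, SE 0.10, adjusted p = 0.0398), and Pold2 at 96.7, 92.0, 90.3 and 82.4 TPM and 69.8, 78.8, 60.4 and 71.3 TPM (log2 fold change -0.37, SE 0.08, adjusted p = 0.0379).

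With the TPM values scaled as deposited, genes of the set were called in both directions for IL-25 at each time. Against the same medium without IL-25, 5 genes were higher and 13 lower at 4 h, 10 higher and 4 lower at 48 h, and 4 higher and 8 lower at 72 h. IL-25 changed much of the transcriptome, with 40.3% of all genes called at 4 h (13.4% higher, 26.9% lower), 50.1% at 48 h (21.4% higher, 28.7% lower) and 48.5% at 72 h (15.3% higher, 33.2% lower), and the members' shares of 37.5%, 29.2% and 25.0% were not above that. The median log2 fold change of all genes was -0.12, -0.09 and -0.20, and how the libraries are scaled moves the split. It became 10 higher and 8 lower at 4 h, 19 and 1 at 48 h, and 12 and 3 at 72 h after scaling by the median of ratios, where over all genes it was 2232 and 2096, 2777 and 2640, and 2651 and 2150. Under quantile normalization it was 8 and 7, 8 and 5, and 6 and 7, against 2079 and 2082, 2586 and 2574, and 2162 and 2475 over all genes. At 48 h the count of 14 was 8 without replicate 4 of the group with IL-25 and 9 without replicate 2 of the group lacking it. Of all genes, 4885 and 4983 were called in those fits. Under all 3 scalings alike, 5 genes were called higher and 5 lower at 4 h, 6 and 1 at 48 h, and 4 and 3 at 72 h, and no member was called in opposite directions. Calls shared by the 3 scalings were not counted over all genes, so these counts cannot be set against a background share. The wording below keeps to these genes unless stated.

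Nasp and Orc6 were higher with IL-25 at all 3 times under every scaling. Nasp stood at 32.4, 29.2, 35.1 and 29.2 TPM without and 42.1, 36.1, 47.4 and 48.0 TPM with IL-25 at 4 h (log2 fold change 0.45, SE 0.10, adjusted p = 5.45e-04). At 48 h it was at 66.2, 56.5, 65.9 and 55.4 TPM without and 97.4, 102, 106 and 101 TPM with IL-25 (log2 fold change 0.73, SE 0.10, adjusted p = 6.14e-07), and at 72 h at 48.6, 40.0, 43.6 and 46.8 TPM and 56.6, 62.9, 67.3 and 67.3 TPM (log2 fold change 0.50, SE 0.10, adjusted p = 1.35e-04). The libraries with IL-25 were above those without at each time. Orc6 was at 125, 113, 119.9 and 95.9 TPM without and 186, 191, 182 and 169.7 TPM with IL-25 at 48 h (log2 fold change 0.69, SE 0.11, adjusted p = 1.54e-05), and its difference was 0.41 at 4 h and 0.48 at 72 h.

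Dut and Orc1 were higher with IL-25 at the later times. Dut stood at 269.9, 257, 262 and 263 TPM without and 399.9, 416, 390.5 and 434 TPM with IL-25 at 48 h (log2 fold change 0.64, SE 0.08, adjusted p = 1.43e-07) and at 224, 212, 213 and 208 TPM and 241, 265, 305 and 260.4 TPM at 72 h (log2 fold change 0.31, SE 0.08, adjusted p = 0.00146). At 4 h the 2 groups of Dut overlapped (log2 fold change -0.13, SE 0.08, adjusted p = 0.192). Orc1 was at 4.73, 8.64, 9.10 and 7.05 TPM without and 12.7, 11.7, 11.8 and 13.3 TPM with IL-25 at 48 h (log2 fold change 0.71, SE 0.21, adjusted p = 0.00569), and 0.60 higher on the log2 scale at 72 h, though neither was called with a pseudocount of 0.1 TPM (adjusted p = 0.17 and 0.233) and the call at 72 h was lost without replicate 1 of the group lacking IL-25. Rrm2 was higher with IL-25 at 48 h, going from 269, 329, 370.5 and 304 TPM to 515, 457, 485 and 451 TPM (log2 fold change 0.59, SE 0.15, adjusted p = 0.00241); its estimates were -0.35 at 4 h and 0.35 at 72 h, neither called. Rfc5 was also higher at 48 h (log2 fold change 0.47, SE 0.13, adjusted p = 0.00401), although its lowest library with IL-25, at 88.1 TPM, was below the highest without, at 90.2 TPM.

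Tyms was lower with IL-25 at the later times, unlike Dut. With IL-25 it was higher at 4 h (log2 fold change 0.36, SE 0.11, adjusted p = 0.0136), at 60.0, 57.4, 50.6 and 50.6 TPM against 56.8, 33.9, 38.6 and 43.1 TPM without, a difference not called when only the 2 groups were fitted (adjusted p = 0.0638) or without replicate 2 of the group lacking IL-25, and the groups overlapped. At 48 h it was lower, at 190.0, 170.3, 203 and 216 TPM with against 264, 300.2, 297 and 252 TPM without IL-25 (log2 fold change -0.51, SE 0.11, adjusted p = 5.19e-04), and at 72 h lower again, at 112, 112, 122 and 131 TPM against 268, 218, 225 and 233 TPM (log2 fold change -0.98, SE 0.11, adjusted p = 1.04e-07). The libraries did not overlap at 48 h or 72 h. Tk1, the salvage enzyme for thymidine, was higher with IL-25 at 4 h (log2 fold change 0.37, SE 0.12, adjusted p = 0.0122), which was not called when only the 2 groups were fitted (adjusted p = 0.125) or without replicate 4 of the group with IL-25, and lower at 72 h (log2 fold change -0.50, SE 0.12, adjusted p = 0.00103), though the latter call did not hold under every scaling.

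At 4 h the members lower with IL-25 under all scalings were Lig1, Pclaf, Rfc2, Mcm7 and Rpa1. Lig1 was at 7.93, 10.4, 10.2 and 8.24 TPM without and 1.95, 4.88, 3.28 and 4.71 TPM with IL-25 (log2 fold change -1.16, SE 0.16, adjusted p = 1.62e-06), and Mcm7 at 44.0, 44.9, 48.0 and 34.2 TPM and 32.6, 27.8, 28.1 and 28.8 TPM (log2 fold change -0.52, SE 0.09, adjusted p = 4.62e-05). Neither overlapped. Pclaf was near the bottom of the range in both, at 1.54, 1.46, 1.68 and 1.32 TPM without and 0, 1.09, 0 and 0.24 TPM with IL-25 (log2 fold change -0.98, SE 0.15, adjusted p = 1.26e-05). Pold2 was the one polymerase gene called higher, at 89.3, 85.2, 87.2 and 86.6 TPM without and 109, 125, 112 and 110.3 TPM with IL-25 (log2 fold change 0.39, SE 0.08, adjusted p = 3.34e-04). Rfc2 and Rpa1 stood at -0.59 and -0.48. Chaf1b, Prim2 and Rfc5 were called lower only under some scalings, at -0.52, -0.44 and -0.36. The others called lower at 4 h were Mcm4, Mcm6, Gins2, Pold1 and Rpa2.

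At 72 h, Pold1 and Rpa2 joined Tyms as lower with IL-25 under all scalings. Rpa2 was at 94.0, 99.3, 77.3 and 86.7 TPM without and 60.8, 66.6, 71.0 and 63.3 TPM with IL-25, and Pold1 at 49.4, 50.4, 49.8 and 50.5 TPM and 34.2, 35.6, 41.5 and 30.6 TPM, with no overlap (log2 fold change -0.44, SE 0.08, adjusted p = 1.14e-04; log2 fold change -0.49, SE 0.13, adjusted p = 0.00278). Rfc1, Rfc3 and Lig1 were called lower at -0.64, -0.45 and -0.43, but not under every scaling, and Pole was the eighth gene called lower. At 48 h, Gins2, Rrm1, Pold2 and Pcna were called higher at 0.52, 0.33, 0.22 and 0.22, and Pola1, the catalytic subunit of DNA polymerase alpha, Rfc1 and Pold1 lower at -0.42, -0.50 and -0.34, again not under every scaling; the estimate for Pcna became -0.001 under quantile normalization. Leaving out single libraries ended these calls for Gins2, Pcna, Pola1, Pold1, Pold2 and Rfc1, in each case without replicate 4 of the group with IL-25 among others.

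Several genes central to S phase were not called for IL-25 at 48 h. Mcm5 stood at 193, 209, 256 and 214 TPM without and 239.6, 212, 230.4 and 223 TPM with IL-25 at 48 h (log2 fold change 0.06, SE 0.11, adjusted p = 0.665, 95% interval -0.16 to 0.28), and its estimate turned to -0.12 under quantile normalization. Mcm2 was at 106, 118, 136 and 105 TPM and 149, 125, 136 and 121 TPM (log2 fold change 0.19, SE 0.10, adjusted p = 0.098, 95% interval -0.00 to 0.39), and Ccne1 at 42.8, 48.6, 53.2 and 42.5 TPM and 66.5, 59.1, 55.5 and 58.0 TPM (log2 fold change 0.35, SE 0.15, adjusted p = 0.0527, 95% interval 0.04 to 0.65). All 4 libraries of Ccne1 with IL-25 were above those without. Scaling by the median of ratios gave a call for Mcm2 (adjusted p = 0.00141) and Ccne1 (adjusted p = 0.00901), as did array weights (adjusted p = 0.0492 and 0.0459) and leaving out replicate 3 of the group lacking IL-25. Ccne1 was also called when only the 2 groups were fitted (adjusted p = 0.0109). The other key members Cdc6, Cdt1, Ccne2, E2f1, E2f2, Slbp and Rpa3 were called at none of the 3 times.

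**Figure D3:**
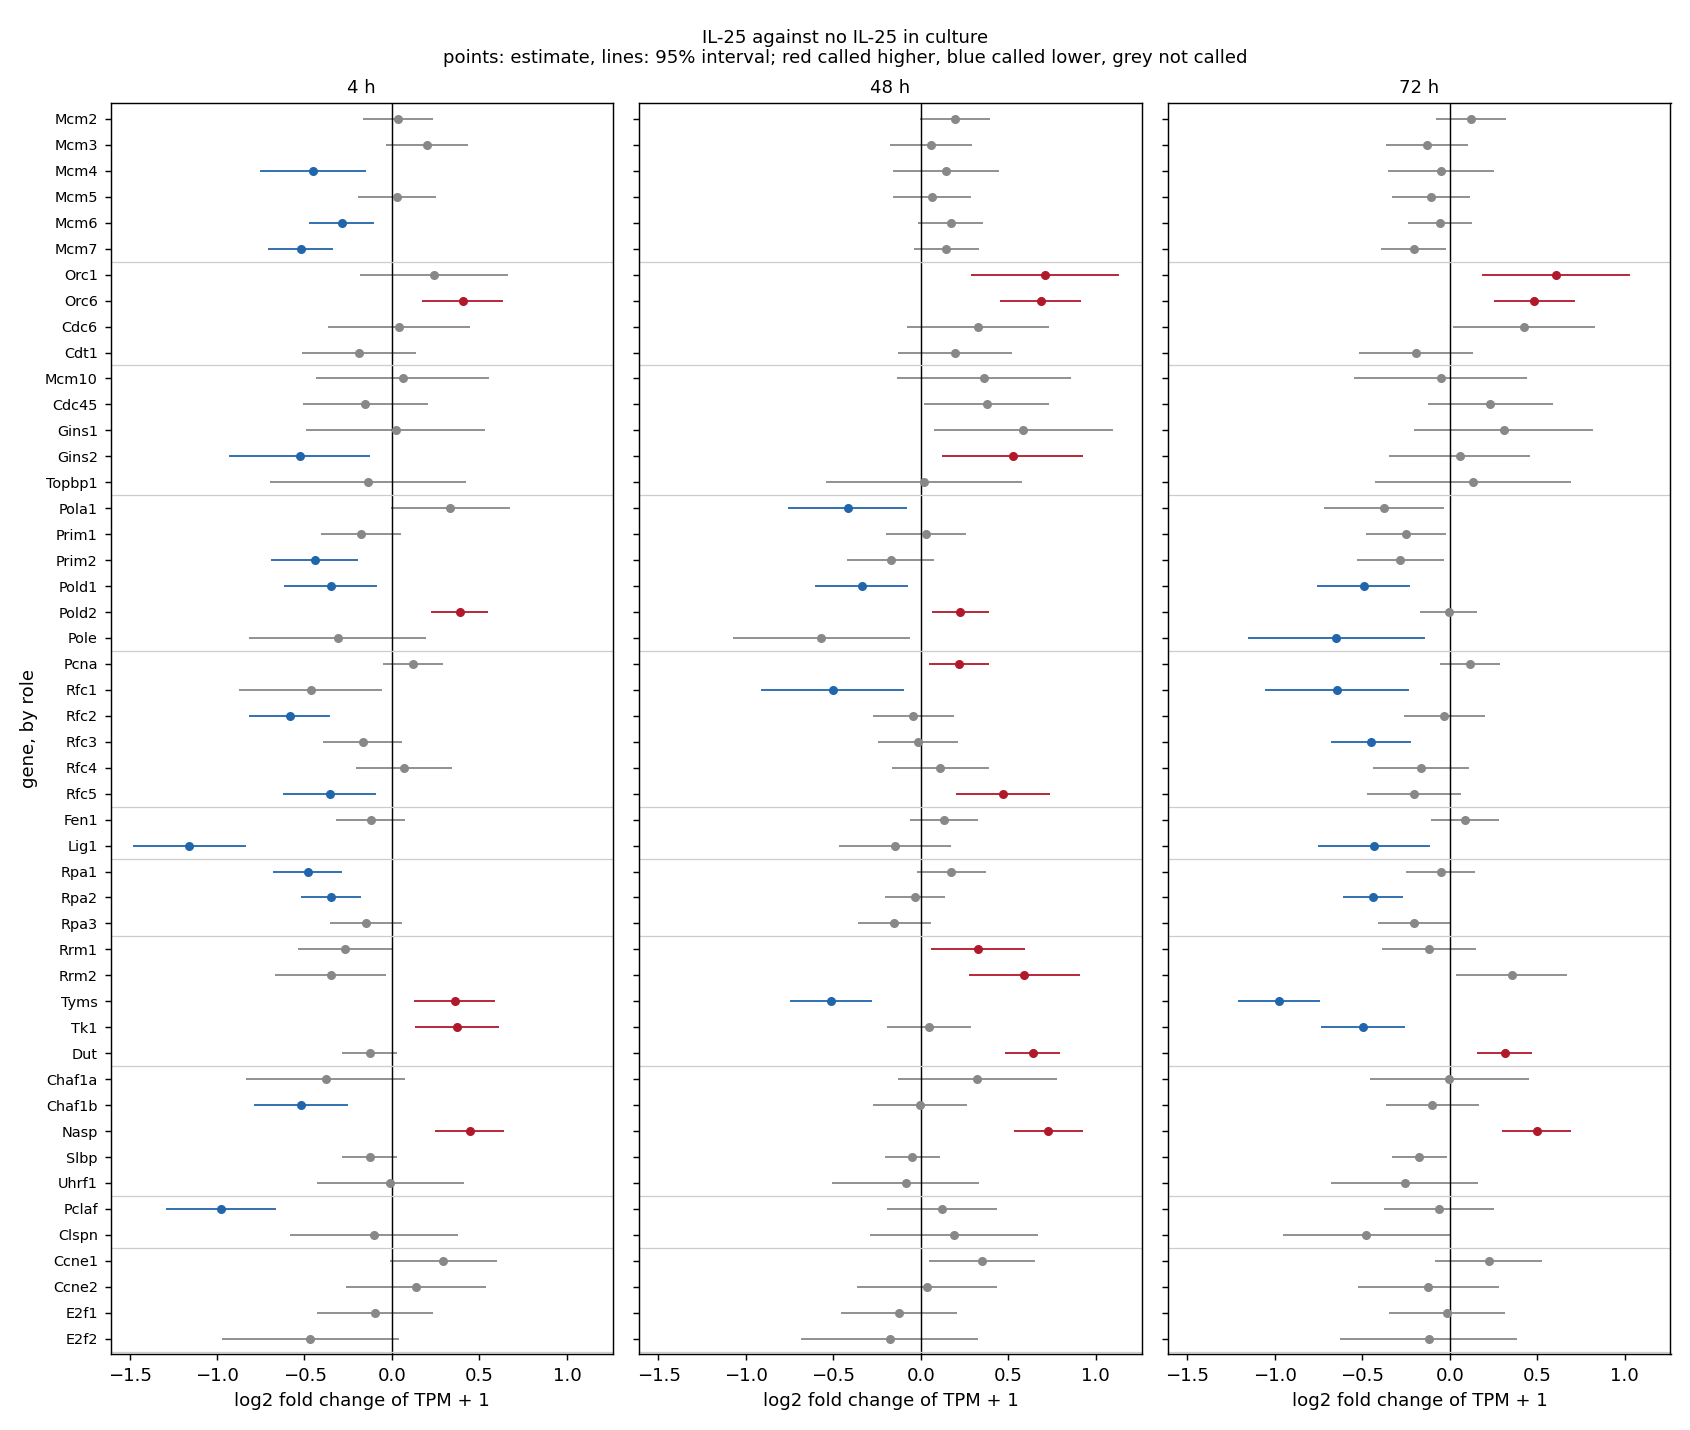
Difference between cultures with and without IL-25 in log2(TPM + 1) for each of the 48 genes (rows, by role) at 4, 48 and 72 h (panels), with the 95% interval. Genes called higher are red (5, 10 and 4 at the 3 times) and genes called lower are blue (13, 4 and 8), and most lie within 1 log2 unit of 0.

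The change of the IL-25 effect between times was tested as a difference of differences. From 4 h to 48 h it was called for 16 of 48 genes, 14 upward and 2 downward, where 27.9% of all genes were called (17.2% upward, 10.7% downward). Upward changes were largest for Pclaf (1.10, SE 0.21), Gins2 (1.05), Lig1 (1.01), Rrm2 (0.94), Rfc5 (0.83), Dut (0.77), Mcm7 (0.67) and Rpa1 (0.66). Of the 14, 7 were called under all scalings, a count not made over all genes. The IL-25 estimates behind them were -1.16 at 4 h and -0.15 at 48 h for Lig1, -0.52 and 0.15 for Mcm7, and -0.13 and 0.64 for Dut. Tyms (-0.87, adjusted p = 1.57e-04) and Pola1 (-0.75, adjusted p = 0.0172) changed downward. From 48 h to 72 h, 4 of 48 genes were called, all downward (Rfc5, Tk1, Rpa2 and Dut, at -0.68, -0.54, -0.41 and -0.32), where 14.7% of all genes were called (5.22% upward, 9.5% downward). That count was 7 when only the 4 groups compared were fitted and also with array weights, 1 by the median of ratios and 0 under quantile normalization. Of all genes, 1519, 1701, 1482 and 1400 were called there, in that order. The member count was 6 without replicate 3 of the 48 h group lacking IL-25, and 2 without replicate 1 or 4 of that group. Of all genes, 1592, 1381 and 1332 were called in those fits. Of the 16 fits that left out 1 library, Dut lost its call in 14 and Tk1 in 4.

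Markers of other cells moved with time and IL-25 as well. The 2 listed globin genes, Hba-a1 and Hba-a2, summed to 479 to 553 TPM at 48 h without IL-25 and 8.71 to 19.4 TPM with it, and the 2 listed T cell markers to 96.0 to 114 TPM without and 30.8 to 42.2 TPM with it at 72 h. The myeloid markers listed (4 of 10) summed to 123 to 164 TPM over the 4 h libraries and 9.44 to 42.2 TPM at 48 h. With IL-25 they summed to 9.44 to 14.6 TPM at 48 h and 41.3 to 52.8 TPM at 72 h. Without it their sums were 21.85 to 42.2 TPM and 24.2 to 63.5 TPM. Cd79b, the 1 B cell marker listed, stood at 12.3 to 19.5 TPM at 4 h, 71.3 to 91.5 TPM at 48 h and 132 to 157 TPM at 72 h with IL-25, against 25.2 to 30.1, 43.5 to 49.8 and 37.6 to 47.1 TPM without. The 2 epithelial markers, Epcam and Krt18, summed to 171 to 186 TPM without and 87.7 to 99.8 TPM with IL-25 at 4 h, 95.9 to 113 and 35.1 to 40.5 TPM at 48 h, and 68.0 to 88.1 and 51.5 to 61.5 TPM at 72 h. Their part in the results was not tested.

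In the genotype table, the 2 populations differed across nearly the whole set. In CTRL, 46 of 48 genes were higher in iILC2 than in nILC2 and none was lower, against a background of 45.5% called (21.9% higher and 23.6% lower). The median log2 fold change of the set was 0.90, against -0.03 for all genes, and 44 of the 48 genes had every iILC2 library above every nILC2 library, as 20.5% of all genes did. The summed level was 8053 to 8392 TPM in iILC2 CTRL, and 4413, 5052, 4585 and 3479 TPM in the 4 nILC2 CTRL libraries. In KO the count was 37 higher and 0 lower, against a background of 31.4% called (13.8% higher and 17.6% lower), with a median of 0.52.

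E2f2 separated the populations most. It stood at 4.46, 7.20, 7.84 and 3.37 TPM in nILC2 CTRL and 25.6, 25.6, 25.5 and 22.6 TPM in iILC2 CTRL (log2 fold change 2.00, SE 0.21, adjusted p = 3.65e-07), and at 6.32, 10.2, 12.4 and 11.6 TPM and 22.3, 23.3, 23.7 and 24.1 TPM in the KO (log2 fold change 1.17, SE 0.21, adjusted p = 3.03e-04). E2f1, the related factor, was at 4.11, 6.54, 3.60 and 3.05 TPM and 6.51, 8.80, 5.64 and 6.97 TPM in CTRL (log2 fold change 0.61, SE 0.20, adjusted p = 0.0161), with overlap, and its estimate in the KO was 0.35 (adjusted p = 0.19). E2F1 and E2F2 are activator members of their family.

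Cyclin E and licensing genes were also higher in iILC2 CTRL. Ccne1 was at 49.8, 53.1, 71.3 and 38.5 TPM in nILC2 CTRL and 112, 119, 126 and 122 TPM in iILC2 CTRL (log2 fold change 1.19, SE 0.19, adjusted p = 5.25e-05). Ccne2 was at 41.0, 36.5, 41.0 and 22.4 TPM and 79.8, 78.0, 79.8 and 65.1 TPM (log2 fold change 1.11, SE 0.19, adjusted p = 1.26e-04). Cdt1 was at 63.5, 75.9, 61.7 and 52.4 TPM and 160.2, 159.8, 144 and 164 TPM (log2 fold change 1.31, SE 0.14, adjusted p = 3.48e-07), and Cdc6 at 51.0, 62.2, 65.2 and 34.0 TPM and 103, 102, 101 and 104 TPM (log2 fold change 0.98, SE 0.15, adjusted p = 4.46e-05). Each of these 4 genes had its lowest iILC2 library above its highest nILC2 library. In the KO their differences were 0.67, 0.73, 0.80 and 0.56, all called.

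Of the machinery itself, Rrm2 was at 275, 341, 288 and 191 TPM in nILC2 CTRL and 618, 711, 646 and 613 TPM in iILC2 CTRL (log2 fold change 1.27, SE 0.16, adjusted p = 4.98e-06), the highest level of any of the 48 genes. Pclaf was at 168, 199.7, 166 and 103 TPM and 383, 391, 375 and 359 TPM (log2 fold change 1.28, SE 0.17, adjusted p = 9.07e-06). Clspn was at 14.2, 35.1, 19.2 and 5.96 TPM and 38.3, 51.0, 36.2 and 39.9 TPM (log2 fold change 1.33, SE 0.32, adjusted p = 0.00254), with a wide spread among the nILC2 libraries. Chaf1b rose by 1.24, and the 6 MCM2-7 genes by 0.73 to 0.99, with Mcm5 at 192, 239, 225 and 167 TPM and 399, 387, 374 and 391 TPM. Pcna was at 173, 199, 186 and 143 TPM and 363, 399, 355 and 339 TPM (log2 fold change 1.06, SE 0.10, adjusted p = 1.32e-07). In the KO, Rrm2, Pclaf, Chaf1b and Prim2 were higher in iILC2 by 0.74, 0.89, 0.74 and 0.71.

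The exceptions in CTRL were Pold2 and Rfc1. Pold2 was at 65.0, 77.5, 63.7 and 61.1 TPM in nILC2 and 64.5, 71.0, 71.0 and 77.2 TPM in iILC2 (log2 fold change 0.09, SE 0.11, adjusted p = 0.553, 95% interval -0.15 to 0.33), and it had not been called from 4 h to 48 h in culture either. Rfc1, the large subunit of the clamp loader, was at 27.6, 32.5, 28.9 and 29.3 TPM and 41.4, 28.1, 22.7 and 31.2 TPM (log2 fold change 0.03, SE 0.17, adjusted p = 0.902, 95% interval -0.33 to 0.39), while Rfc2 to Rfc5 rose by 0.68 to 0.94. In the KO, 11 genes were not called, among them Pold1, Pold2, Pola1, Tyms, Dut and Orc1. The ILC2 markers differed between the populations in the other direction, with 11 of the 14 lower in iILC2 CTRL, 1 higher (Thy1) and 2 not called (Il13 and Icos). Among the T cell, B cell, myeloid and epithelial markers, Cd79b, Cd68, Itgam and Krt18 were higher and Cd3g, Cd74 and Epcam lower in iILC2 CTRL. Their part in the results was not tested.

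The knockout was compared with CTRL within each population. In nILC2, 1 of 48 genes was called, Prim1, which was higher in the KO, where 1.54% of all genes were called. Prim1 encodes the catalytic subunit of primase and stood at 51.6, 55.2, 46.4 and 48.5 TPM in CTRL against 60.2, 65.7, 68.4 and 70.4 TPM in KO (log2 fold change 0.39, SE 0.08, adjusted p = 0.0247). Every KO library was above every CTRL library, although the call did not hold when only the 2 groups were fitted (adjusted p = 0.21) or when CTRL replicate 3 or 4 or KO replicate 2, 3 or 4 was left out (adjusted p = 0.0582, 0.0812, 0.0677, 0.0828 and 0.0608). In iILC2 it stood at 102, 104, 99.4 and 99.6 TPM in CTRL against 100.4, 96.6, 90.5 and 93.5 TPM in KO (log2 fold change -0.09, SE 0.08, adjusted p = 1).

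The other 47 genes did not pass the test in nILC2, and all 48 estimates were above 0, where 49.4% of all genes had an estimate above 0. The 48 genes are read in the same 8 libraries and are not independent of each other. Their median was 0.35, with a range of 0.14 (Topbp1) to 0.83 (Clspn), against a median of -0.003 for all genes. At an unadjusted p under 0.05, 34 of the 48 passed, as did 19.3% of all genes. In CTRL the genes summed to 4413, 5052, 4585 and 3479 TPM, and in KO to 4283, 5718, 6446 and 5625 TPM, so 3 of the 4 KO libraries were above all CTRL libraries and KO replicate 1 was below 3 of them.

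The count depended on single libraries. Without KO replicate 1, 27 of 48 genes were called higher, where 9.98% of all genes were called and 6.36% called higher. Without CTRL replicate 2 the count was 11, where 407 of all genes tested were called. It was 0 without CTRL replicate 3 or 4 or KO replicate 2, 3 or 4, and 1 without CTRL replicate 1. Of all genes, 51, 12, 26, 24, 45 and 65 were called in those fits, in that order. With all libraries the member count was 9 with array weights, 6 by the median of ratios and 3 under quantile normalization, where 275, 272 and 209 genes of all those tested were called. It was 0 when only the 2 groups were fitted and 1 with a term for Y-linked expression, where 5 and 87 genes were called.

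Mcm5 shows the pattern, at 192, 239, 225 and 167 TPM in CTRL against 193, 277, 291 and 279.9 TPM in KO (log2 fold change 0.33, SE 0.11, adjusted p = 0.121, 95% interval 0.09 to 0.57). Its KO replicate 1 lay among the CTRL libraries and the other 3 above them. Pcna was at 173, 199, 186 and 143 TPM and 184, 232, 256 and 230.5 TPM (log2 fold change 0.36, SE 0.10, adjusted p = 0.0723), and Rrm2 at 275, 341, 288 and 191 TPM and 244, 377, 473 and 387 TPM (log2 fold change 0.42, SE 0.16, adjusted p = 0.166), with the same library lowest in the KO. Pcna was called with array weights and by the median of ratios (adjusted p = 0.0413 and 0.0408). E2f2 was at 4.46, 7.20, 7.84 and 3.37 TPM and 6.32, 10.2, 12.4 and 11.6 TPM (log2 fold change 0.75, SE 0.21, adjusted p = 0.0723), Ccne1 at 49.8, 53.1, 71.3 and 38.5 TPM and 42.9, 78.6, 96.8 and 79.9 TPM (log2 fold change 0.45, SE 0.19, adjusted p = 0.201) and Cdc6 at 51.0, 62.2, 65.2 and 34.0 TPM and 54.2, 71.4, 81.6 and 71.5 TPM (log2 fold change 0.41, SE 0.15, adjusted p = 0.154). E2f2 was called with array weights and under both rescalings (adjusted p = 0.046, 0.0485 and 0.0417). In each of these 6 genes the groups overlapped. Without KO replicate 1 the adjusted p was 0.0049 for Mcm5, 0.00628 for Pcna, 0.0106 for Rrm2, 0.00719 for E2f2, 0.00681 for Ccne1 and 0.0381 for Cdc6. Of the other key members, Mcm2 and Cdt1 were called in that fit (adjusted p = 0.00639 and 0.00586). Tyms, Ccne2, E2f1, Slbp and Rpa3 were not called there (adjusted p = 0.0648, 0.0501, 0.532, 0.0697 and 0.078).

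**Figure D4:**
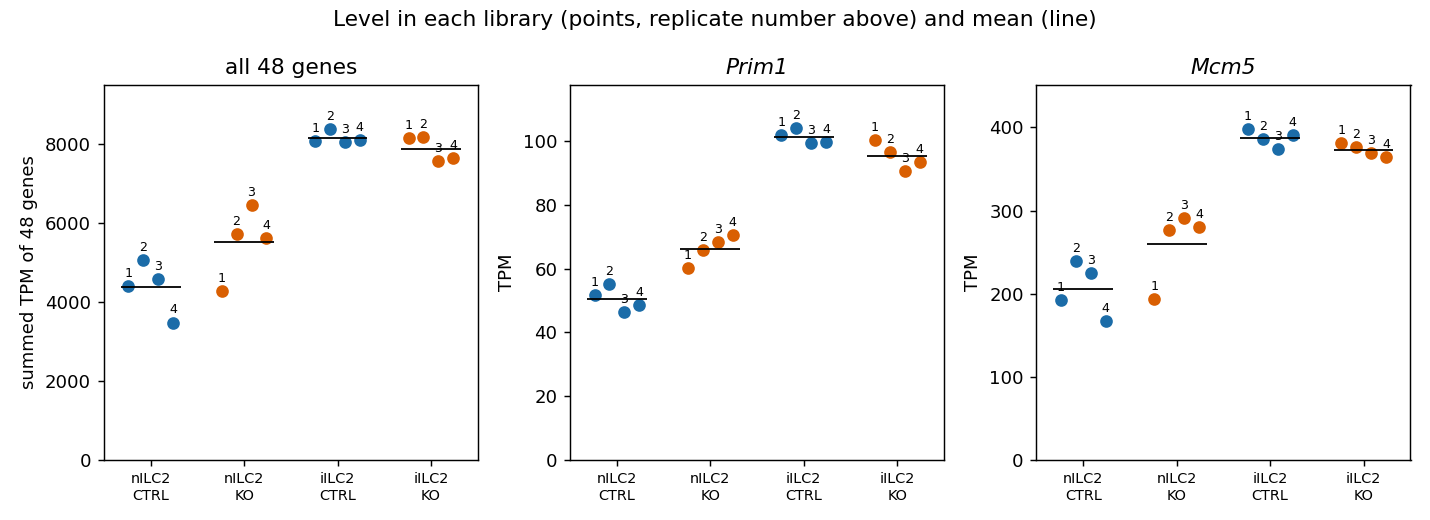
Summed TPM of the 48 genes (left) and TPM of Prim1 and Mcm5 in each library of the 4 genotype groups (points, blue CTRL and orange KO, replicate number above each point), with the mean as a line. KO replicate 1 of nILC2 lies at 4283 TPM on the left, within the CTRL range of 3479 to 5052 TPM, while the other KO libraries lie at 5625 to 6446 TPM; the iILC2 libraries lie at 7581 to 8392 TPM.

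Some ILC2 markers differed in the same nILC2 comparison. Id2 was at 751, 672, 799 and 797 TPM in CTRL against 675, 483, 446 and 474 TPM in KO (log2 fold change -0.55, SE 0.11, adjusted p = 0.0295), Gata3 at 286, 263, 294 and 287 TPM and 244, 211, 186 and 233 TPM (log2 fold change -0.37, SE 0.08, adjusted p = 0.0375), and Il17rb, the IL-25 receptor subunit, was lower in KO as well (log2 fold change -0.45, SE 0.10, adjusted p = 0.0345). All 3 are lower in iILC2 than in nILC2. KO replicate 1 had the highest Id2 of the KO libraries. The other 11 ILC2 markers were not called. Of the T cell, B cell, myeloid, epithelial and erythroid markers tested, Epcam, an epithelial gene, was lower in KO, at 28.1, 15.5, 20.4 and 19.1 TPM in CTRL against 12.8, 9.21, 6.46 and 11.4 TPM (adjusted p = 0.0406), and the rest were not called. Their part in the differences of the replication genes was not tested.

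In iILC2 no gene of the table was called for the knockout (0% of all genes), and so 0 of the 48 in limma. At an unadjusted p under 0.05, 1 of the 48 passed (Rfc1, 0.37), as did 3.26% of all genes. The median of the set was -0.05 and the genes summed to 8053 to 8392 TPM over the CTRL libraries and to 7581 to 8170 TPM over the KO libraries. Mcm5 was at 399, 387, 374 and 391 TPM in CTRL against 382, 376, 369 and 365 TPM in KO, a difference of -0.06 with a 95% interval of -0.30 to 0.18. For Pcna the difference was -0.06 (-0.28 to 0.15) and for Rrm2 -0.10 (-0.45 to 0.24).

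The difference between the knockout effects of the 2 populations was called for 0 of 48 genes, as for 0% of all genes. Its estimate was below 0 (a smaller effect in iILC2) for 47 of 48 genes, with a median of -0.39, and 20 of the 48 passed an unadjusted p under 0.05, as did 10.5% of all genes. The exception in sign was Rfc1. Without nILC2 KO replicate 1, 9 genes were called, all downward, as were 80 of all genes tested (and 52 upward), and without any other single library 0.

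**Figure D5:**
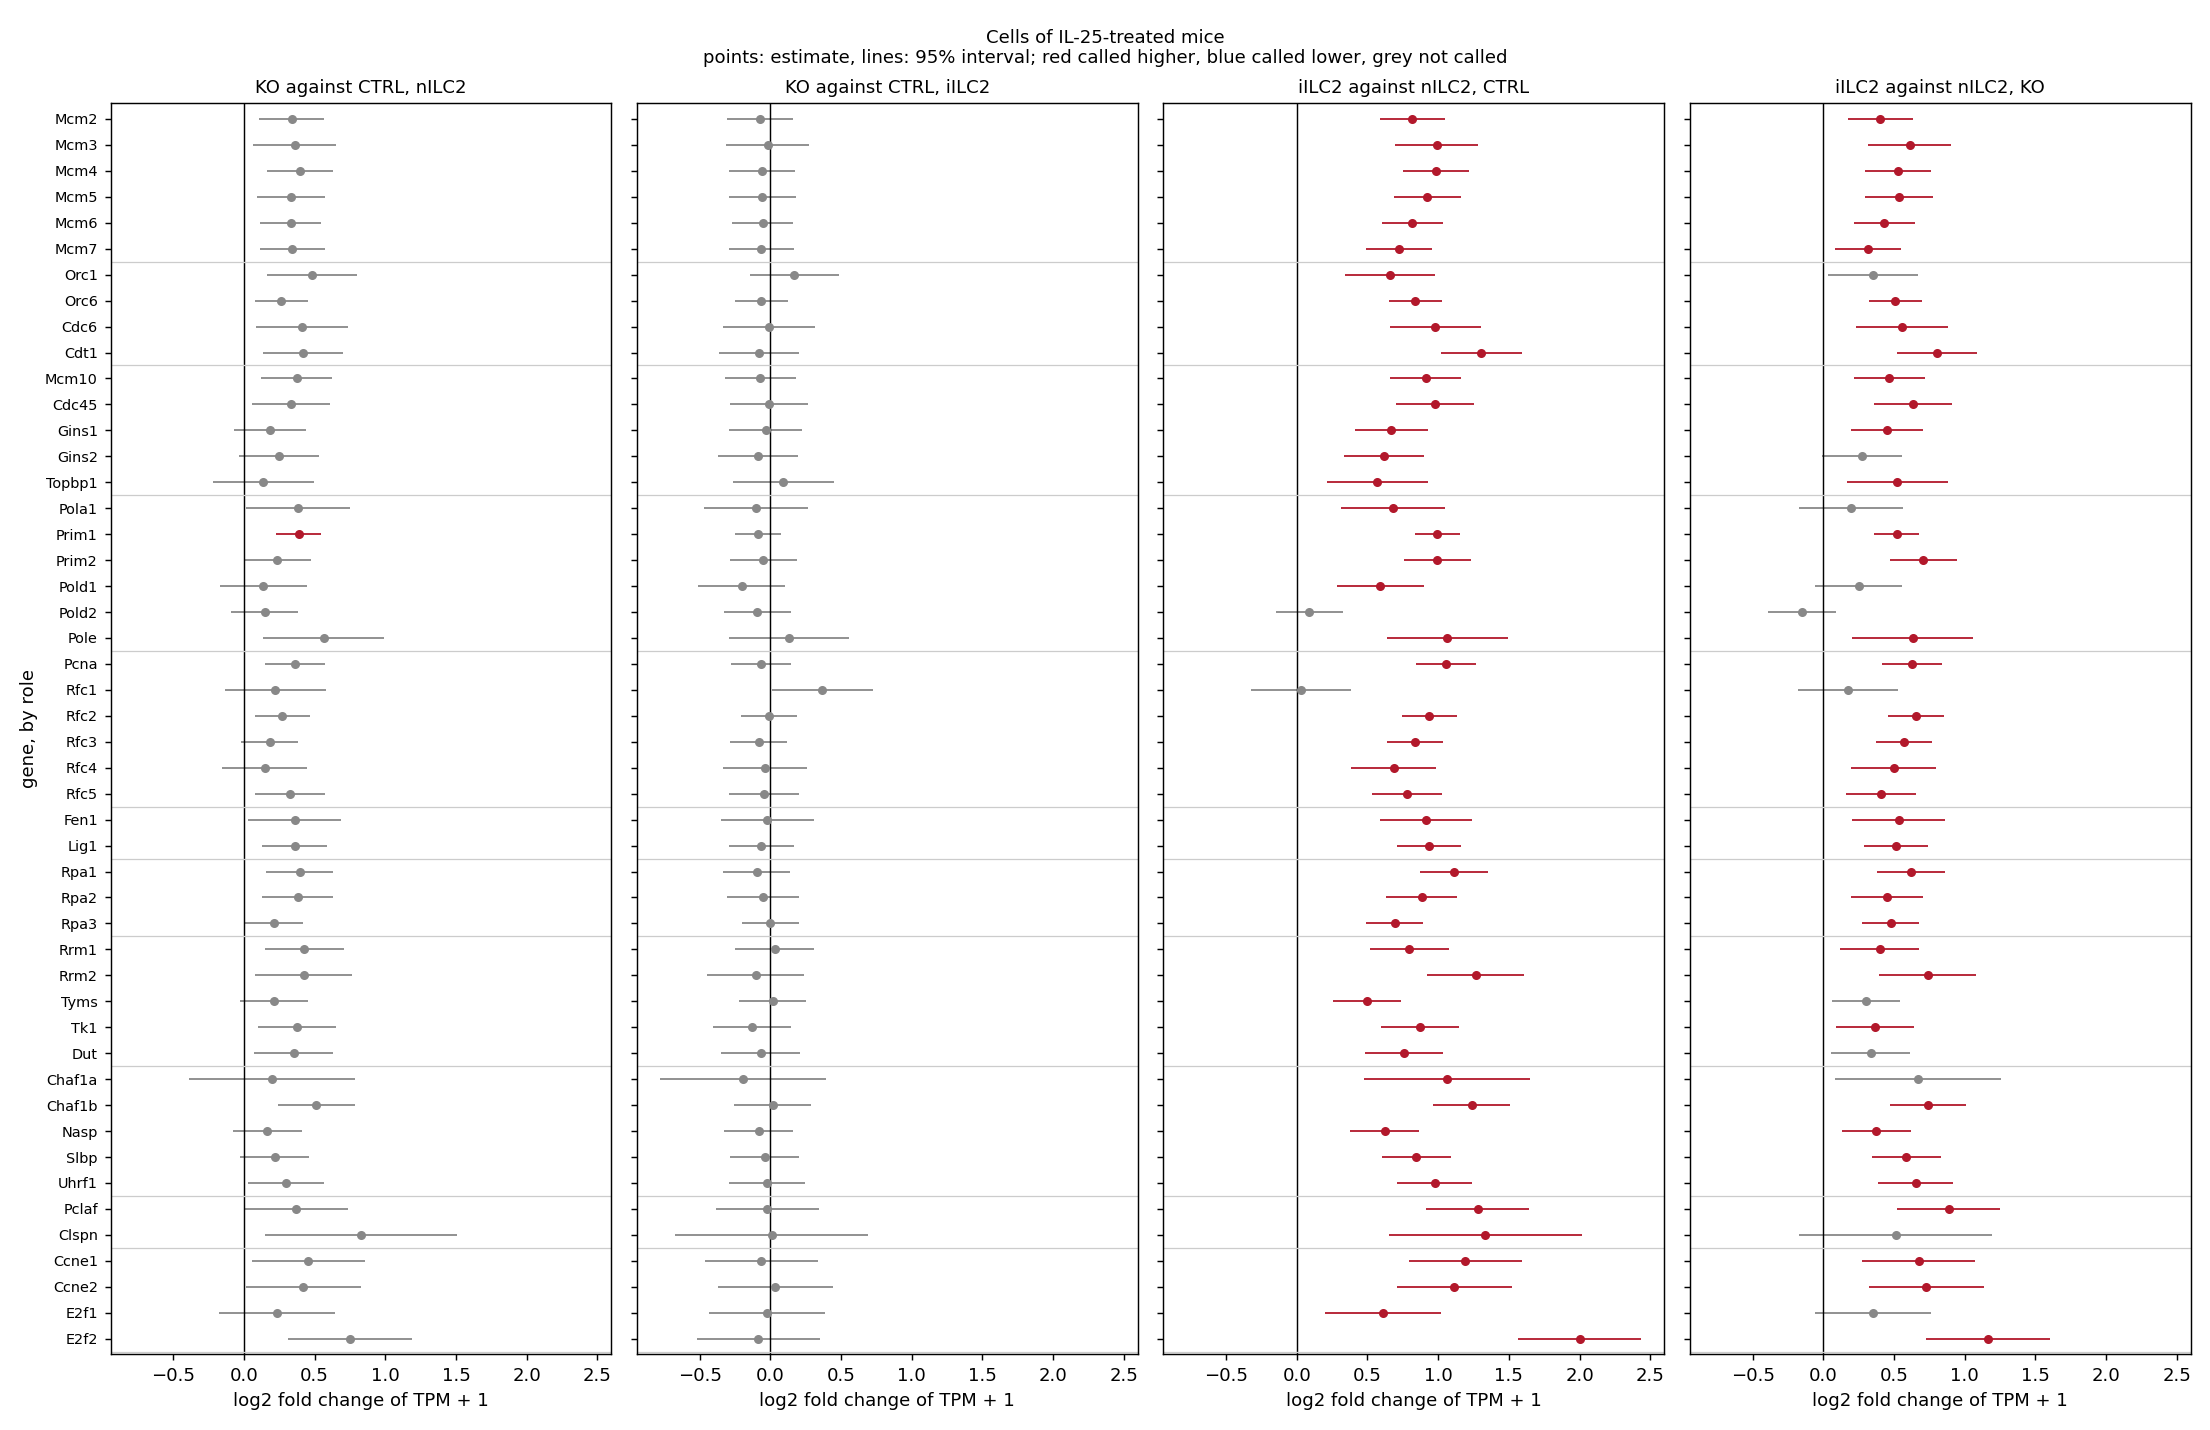
Differences in log2(TPM + 1) for the 48 genes (rows, by role) between KO and CTRL in nILC2 and iILC2 and between iILC2 and nILC2 in CTRL and KO (panels), with the 95% interval; red genes are called higher, grey ones are not called. The first panel has 48 estimates above 0 and 1 red gene, Prim1, and the last 2 panels have 46 and 37 red genes.

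Other genes of the same processes, from lists drawn up by function, were read in the same fits. Of 48 further replication genes, 35 were higher and 7 lower at 48 h than at 4 h without IL-25 (median log2 fold change 0.85), and 36 were higher and 2 lower in iILC2 CTRL (median 0.61). Among all genes tested, 19.9% were called higher and 44.5% lower in the first comparison, and 21.9% and 23.6% in the second. Asf1b, a histone chaperone, and Dck, a nucleoside kinase, were among the largest at 5.13 and 3.36 in culture and 1.26 and 1.23 between populations. In nILC2, 1 of the 48 was called for the knockout, Dck, which was higher in KO at 0.46, where 1.54% of all genes were called. All 18 mitosis markers were higher at 48 h than at 4 h without IL-25 (median 4.63) and all 18 in iILC2 CTRL (median 0.93). By limma, 0 of them were called for the knockout in either population. At an unadjusted p under 0.05, 11 passed in nILC2 and 2 in iILC2, as did 19.3% and 3.26% of all genes. Mki67, the proliferation antigen, was at 15.8 ± 3.34 TPM (mean ± SD, n = 4) in nILC2 CTRL, 19.6 ± 3.70 TPM in nILC2 KO and 37.0 ± 2.66 TPM in iILC2 CTRL.

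The G1/S regulators outside the set were more mixed. Of 28 tested among 30, 12 were higher and 5 lower at 48 h than at 4 h without IL-25, and 12 higher and 4 lower in iILC2 CTRL. The shares of all genes called there were 19.9% higher and 44.5% lower, and 21.9% higher and 23.6% lower. Ccnd3 (cyclin D3) was lower with IL-25 at 48 h, at 205, 173, 193 and 198 TPM against 334, 320.2, 400.4 and 368 TPM without (log2 fold change -0.88, SE 0.08, adjusted p = 1.95e-09). Cdkn1a, which encodes the cell cycle inhibitor p21, was higher with IL-25 at 4 h (log2 fold change 0.55, SE 0.11, adjusted p = 2.20e-04) and lower at 48 h (log2 fold change -0.81, SE 0.11, adjusted p = 8.13e-07), and Cdkn1b (p27) was lower at 4 h and 48 h (-0.67 and -0.83). Ccnd2 (cyclin D2) was at 148, 135, 105 and 118 TPM in nILC2 CTRL and 27.6, 29.5, 35.9 and 86.7 TPM in iILC2 CTRL (log2 fold change -1.62, SE 0.38, adjusted p = 0.00169), opposite in direction to the 48 genes. In nILC2, 0 of these 28 regulators were called for the knockout by limma, where 1.54% of all genes were. At an unadjusted p under 0.05, 6 of the 28 passed, as did 19.3% of all genes.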

How the data were processed

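The deposited tables list gene symbols and TPM values for 24 cultured libraries and 16 libraries of the genotype groups. The TPM values were computed by the authors and used as deposited; the submitters' processing notes name cutadapt 2.10, STAR 2.7.5c and RSEM 1.3.3 among their tools and the build mm10, without saying which step used which. The 2 tables hold different gene sets and were analysed separately. Listed TPM sums to 873200 to 898025 per cultured library and 849733 to 886670 per genotype library, so part of each library is outside the listed genes. TPM keeps no read total, so depth is unknown and no counting interval is given.

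The 10548 and 10069 genes that reached 1 TPM in 4 or more libraries were fitted with limma 3.58.1 in R 4.3.3 (lmFit, eBayes with trend) on log2(TPM + 1), all groups of a table entering 1 fit that shares their spread. The Benjamini-Hochberg adjustment ran across every gene tested, and calls were made at adjusted p under 0.05. The 14 comparisons are IL-25 against none at 3 times, time within each medium, the change of the IL-25 effect, KO against CTRL, iILC2 against nILC2 and the difference of the KO effects. The script was tested on simulated data. The figures were drawn with matplotlib. Promoter windows are from RefSeq (GRCm38.p6).

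Members, lists and tests were chosen with earlier results of these data known. Named are, per comparison, among called members without overlap of libraries, the 8 that rose most and the 8 that fell most, called members against the majority where 5 or fewer, and key members (Mcm2, Mcm5, Pcna, Rrm2, Tyms, Cdc6, Cdt1, Ccne1, Ccne2, E2f1, E2f2, Slbp and Rpa3); other named members were picked after their values were seen. The motif words were set after the files were seen. Alternatives were pseudocount, filter, array weights, a fit of the compared groups alone, 2 rescalings, a replicate block and leaving out each library, with the filter recomputed; a term for Y-linked expression, a block within genotype, the count of calls shared by 3 scalings and the all-member values without 1 library were added after seeing the data. Replicate numbers in the titles are not stated to pair libraries. Deviations of same-numbered libraries from their group means correlated above 0.1 in all 4 pairs only for nILC2 KO and iILC2 KO (0.188, 0.102, 0.231 and 0.145).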

Additional observations from a re-analysis of the deposited data

Results flagged for a closer look

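Of 140 groups of 4 libraries checked over the key members and the summed level, 9 held 1 library far from the other 3, where chance gives about 1 in 20. At 4 h, E2f2 was 1.82 TPM in 1 library without IL-25 (the others 0 to 0.28) and 0.05 TPM in 1 library with IL-25 (the others 0). Mcm2 was 54.3 TPM in 1 library of 4 h with IL-25 (the others 46.0 to 46.5), and Cdc6 was 1.01 TPM in another of that group (the others 0.11 to 0.25). E2f1 was 7.19 TPM in 1 library of 48 h without IL-25 (the others 5.33 to 5.64). Mcm5 was 193 TPM in nILC2 KO replicate 1 (the others 277 to 291), the library without which 27 members were called for the knockout in nILC2. In iILC2 CTRL, Ccne2 was 65.1 TPM in 1 library (the others 78.0 to 79.8), E2f2 was 22.6 TPM in the same library (the others 25.5 to 25.6), and the summed level was 8392 TPM in another (the others 8053 to 8109).

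With the TPM values scaled as deposited, the IL-25 effect differed between times by a tested interaction for the members named by the rule. From 4 h to 48 h the log2 effect changed by 1.10 for Pclaf, 1.05 for Gins2, 1.01 for Lig1, 0.94 for Rrm2, 0.83 for Rfc5, 0.77 for Dut, 0.67 for Mcm7, 0.66 for Rpa1, -0.87 for Tyms and -0.75 for Pola1. Gins2 and Rrm2 lost these calls under quantile normalization. From 48 h to 72 h the effect changed by -0.68 for Rfc5, -0.54 for Tk1, -0.41 for Rpa2 and -0.32 for Dut. None of these was called under quantile normalization, and Tk1, Rpa2 and Dut were not called by the median of ratios either. Of the 16 fits without 1 library, the call was lost in 14 for Dut and 4 for Tk1.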

How the results depend on the processing

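Counts of called members stayed within 1.5 times the reported count in every comparison under the filter and pseudocount alternatives, in 11 of 14 comparisons under the fit of the compared groups alone and under each rescaling, and in 12 of 14 with array weights and with the replicate block. The exceptions follow. For 72 h against 48 h without IL-25 (2 genes), the fit of the compared groups alone gave 0, the median of ratios and quantile normalization 8 each, and the replicate block 1. With that block 45 of all genes were called. For the change of the IL-25 effect from 48 h to 72 h (4), array weights and the groups alone gave 7, the median of ratios 1 and quantile normalization 0. For the knockout in nILC2 (1), array weights gave 9, the groups alone 0, the median of ratios 6, quantile normalization 3 and the replicate block 4. With the replicate block 317 of all genes were called there. Leaving out single libraries gave 14 to 20 genes for IL-25 at 4 h, 8 to 16 at 48 h and 9 to 14 at 72 h. Of all genes, 3799 to 3991, 4841 to 5155 and 4569 to 5000 were called in those fits. From 4 h to 48 h it gave 46 to 47 in each medium, against 6365 to 6674 of all genes without IL-25 and 7298 to 7477 with it. From 48 h to 72 h it gave 0 to 2 without IL-25 and 25 to 33 with it, against 11 to 49 and 2892 to 3083. For the changes of the IL-25 effect it gave 13 to 19 and 2 to 6, against 2695 to 2838 and 1313 to 1592. For the knockout it gave 0 to 27 in nILC2, 0 to 0 in iILC2 and 0 to 9 for their difference. All-gene counts there were 12 to 1003, 0 to 0 and 0 to 132. For iILC2 against nILC2 it gave 45 to 46 in CTRL and 31 to 41 in KO, against 4135 to 4501 and 2736 to 3206. Of the named genes, 2 changed sign, Mcm5 (-0.12) and Pcna (-0.00101) for IL-25 at 48 h under quantile normalization. No result of a named gene changed sign when a single library was left out. The causes were not tested. The replicate block changed no other count by over 1.5 times; in nILC2 it gave a call for E2f2 and Pcna (adjusted p = 0.0437 and 0.0416). All 4 same-numbered correlations were over 0.1 between nILC2 KO and iILC2 KO, and not all 4 between any other pair of groups. The terms added after seeing the data (Y-linked expression, block within genotype) kept every count within 1.5 times. Gene values were recomputed for named members only.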
